A study of Jatropha curcas with 4 samples.

Results

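Exon-rich gene models of Jatropha roots were taken as the models with 15 or more annotated coding exons and no note of a defect in the annotation. Of the 57437 annotated gene models, 1133 met this rule, and the 1052 of them with a CPM (the count scaled to a common library total) of 1 or more in no fewer than 2 libraries are the members described here. They made up 6.04% of the 17410 models that passed this filter. Another 323 models with 15 or more exons carried a note such as a partial or transposon-related structure and were left out. Choosing members by exon number used no expression value, but the filter on CPM did.

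Roots of Jatropha curcas, an oil-bearing shrub grown here from Chai Nat (Thailand) seed, were sampled from 30-day-old plants kept in containers outdoors. Waterlogged plants (WS) stood for 24 h with water 3 cm above the soil, and non-stress plants (NS) stood for 24 h in a container without water. Each treatment had 2 poly(A) RNA libraries of whole roots, described by the study as independent biological replicates, although its design line also speaks of pooled mRNA. No strain, transgene or second agent distinguished the groups. Whole roots hold many cell types, so fewer cells of a type and less RNA per cell cannot be told apart.

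Most plant genes are split into exons that the spliceosome joins while the transcript is being made, and every additional intron adds a splicing step before the mRNA can be exported and translated. Genes with many exons usually encode long, multidomain proteins, such as motor proteins, membrane transporters, DNA replication factors and vesicle coat subunits. Waterlogging cuts off the oxygen of roots, and plants answer by turning on fermentation and glycolysis and by holding back growth.

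Library totals were 6110438 (NS replicate 1), 1204502 (NS replicate 2), 4143491 (WS replicate 1) and 2531520 counts (WS replicate 2). The median member had 307, 59, 179.5 and 101 reads in these libraries, and 1, 25, 5 and 9 members had no read. NS replicate 2 was thus the shallowest library, where 3 reads correspond to 2.49 CPM against 0.491 CPM in NS replicate 1. As a check of the treatment labels, the alcohol dehydrogenase genes ADHa (Jcr4S02965.20) and ADHb (Jcr4S02682.20), fermentation enzymes with 10 exons each and no members, were 5.60 and 5.17 higher in WS on the log2 scale (adjusted p = 0.00258 and 0.00377, edgeR quasi-likelihood test). Of the 665 models with a description at hand, 7 were genes of the photosynthetic light reaction, markers of green tissue. These 7 summed to 77.1 and 65.2 CPM in NS and 68.8 and 37.6 CPM in WS. In each of NS replicate 2 and WS replicate 2, 2 of them were at 0. Their part in any result was not tested.

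A large majority of exon-rich models were transcribed in these roots. Of the 1133 models, 1098 had at least 1 read and 92.9% passed the filter, against 55.0% of the 19687 models of 2 to 14 exons and 41.8% of the 4613 single-exon models. The passing share went up with each step of exon number, from 42.3% at 2 to 4 exons to 66.6% at 5 to 9 and 80.5% at 10 to 14. Among the exon-rich models it was 91.3% at 15 to 19 exons, 95.4% at 20 to 29 and 98% of the 50 models with 30 or more. CPM is not corrected for length, and longer models collect more reads, so this filter favours them. Of the 1052 members, 970 reached the minimum in all 4 libraries, 8 in NS libraries alone and 5 in WS libraries alone. Of these 8 and 5, which passed through the group where they were high, 1 and 2 are among the calls given below, and without them 22 members rose and 18 fell.

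The members held 20638 exons, with a median of 18 per model and a maximum of 64. Their coding length was 2459 bp at the median (quartiles 1916 and 3236 bp), with a range of 1044 to 14424 bp, against 1089 bp in the tested models of 2 to 14 exons. Their exons were short. The median exon of a member measured 105 bp, against 153 bp in models of 2 to 14 exons and 249 bp in models of 2 to 4 exons. Introns were short as well, with a median of 160 bp against 197 bp. They made up 66.6% of the summed genomic span of the members, against 57.0%. Models of 10 to 14 exons were near the members in both, with a median intron of 167.5 bp and introns at 64.5% of the span. Exon length changed little above 10 exons (109 bp at 10 to 14 exons, 101 bp at 15 to 19, 106 bp at 20 to 29 and 111 bp at 30 or more), so the coding length of exon-rich models grew with the number of exons.

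**Figure D1:**
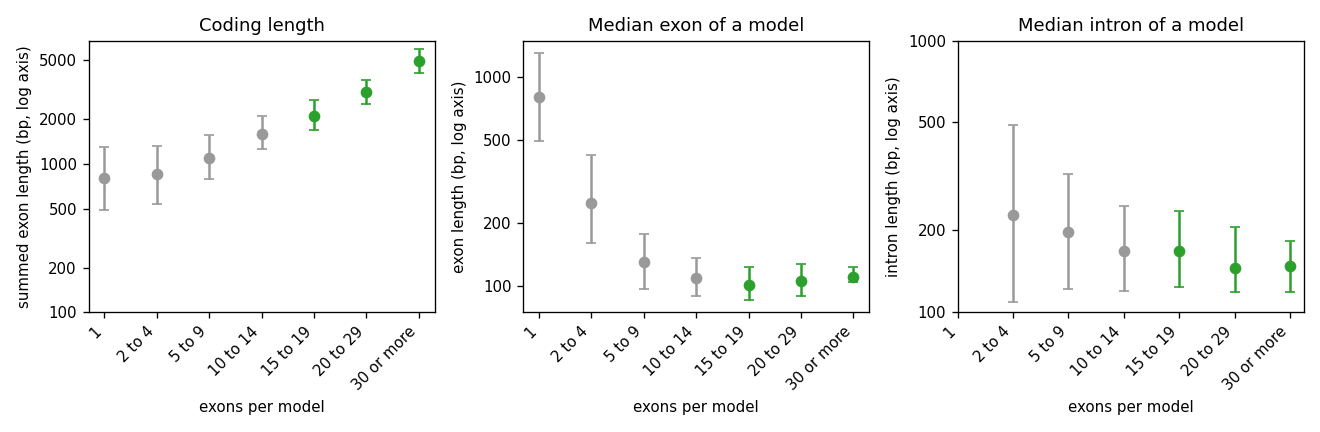
Coding length, median exon length and median intron length (bp, log axes) of tested models by exon number; points are medians, bars reach from the lower to the upper quartile, and the exon-rich classes are green. Median coding length goes from 801 bp in single-exon models to 4938 bp in models with 30 or more exons, while the median exon stays between 101 and 111 bp from 10 to 14 exons upwards.

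An internal exon whose length is divisible by 3 can be skipped without shifting the reading frame. Of the 18534 internal exons of members, 45.6% had such a length, against 42.1% of the internal exons of models of 2 to 14 exons. The share was 39.0% at 2 to 4 exons, 41.6% at 5 to 9 and 43.5% at 10 to 14. Within the members it was 44.7% at 15 to 19 exons, 46.3% at 20 to 29 and 47.9% at 30 or more. At the border it was 44.3% in models of exactly 14 exons and 42.3% in members of exactly 15, so it did not step up at 15. Exons of at most 50 bp made up 8.23% of member exons and 7.99% of those in models of 2 to 14 exons. These shares come from the annotation alone and say nothing of which exons were spliced in these roots, since the counts were made per model and not per exon.

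The members lay on 843 scaffolds, 512 on the plus and 540 on the minus strand, and 1 of them overlapped the span of another model. In 51 places 2 members were direct neighbours, 25 times on the same strand. The coding length was a multiple of 3 in 1050 members.

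Exon-rich models took a share of the counts below their share of the coding sequence. They held 13.2% of the coding length of the tested models and received 10.1% and 10.3% of the counts in NS replicates 1 and 2, and 11.2% and 10.5% in WS replicates 1 and 2. The means were 10.2% ± 0.0936 (SD, n = 2) in NS and 10.9% ± 0.498 (SD, n = 2) in WS. Both WS libraries lay above both NS libraries, but an exact permutation test of 2 against 2 cannot give a two-sided p under 0.33. The order was lost when the model Jcr4S02562.30 was left out: the shares were then 10.1% and 10.2% in NS and 10.5% and 9.49% in WS. Other strongly rising members were not left out in turn, so the order is not shown to rest on this model alone.

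To compare levels between models, the CPM over TMM-scaled library sizes was divided by the coding length. The members' median was 18.1 and 16.8 CPM per kb in NS replicates 1 and 2, and 18.9 and 16.0 in WS replicates 1 and 2. In the tested models of 2 to 14 exons it was 18.2 and 16.9 in NS and 16.4 and 16.2 in WS. Among models that passed the filter, the typical exon-rich model was therefore at about the level per length of models of 2 to 14 exons. The members' medians of NS and WS overlapped. Only 55.0% of the models of 2 to 14 exons passed, against 92.9% of the exon-rich ones. A shorter model needs a higher level per kb to reach 1 CPM, so the likeness is conditional on the filter. Across the 11872 tested models of 2 or more exons, Spearman's rho between exon number and level per kb was -0.005. It was 0.21 between exon number and mean CPM, which carries the length of the model. All of these models share the same libraries and are not independent replicates.

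**Figure D2:**
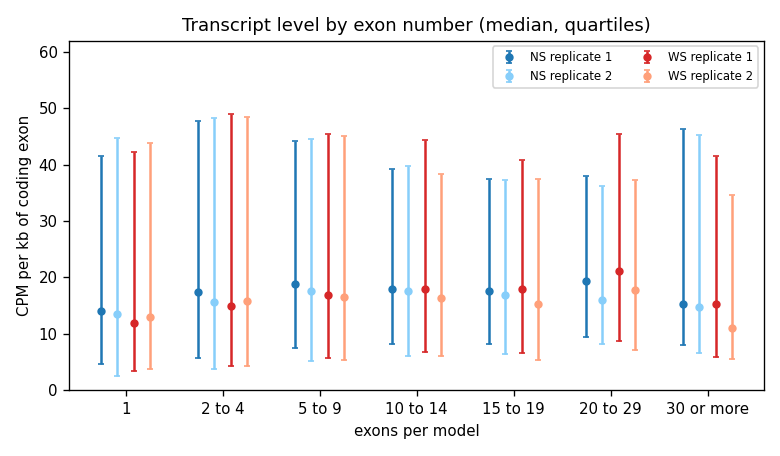
Level per model by exon number in each library, in CPM per kb of coding exon (TMM-scaled); points are medians and bars reach from the lower to the upper quartile over tested models. The medians of models with 15 to 19 exons lie between 15.3 and 18.0 and those of models with 2 to 4 exons between 14.9 and 17.4, far less apart than the quartiles of either class.

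The spread of level among members was smaller at the top than in tested models of 2 to 14 exons. The upper quartile was 39.1 against 47.0 CPM per kb, while the lower quartile was 8.19 against 7.41. In models of 10 to 14 exons the quartiles were 8.24 and 42.0 CPM per kb. The part of the CPM filter in these quartiles was not tested. Of the 49 members with 30 or more exons, the median was 14.5 CPM per kb, and of the 668 with 15 to 19 exons it was 18.3. The model with the most exons, Jcr4S00089.180 with 64 (chosen after its values were seen), had 41.6 and 28.1 CPM in NS and 55.2 and 50.6 CPM in WS. Its WS libraries were above its NS libraries, but the log2 fold change of 0.59 ± 0.51 (SE) did not pass (adjusted p = 0.59, edgeR).

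For the comparison at equal read support, each member was given a partner, the unused model of 2 to 14 exons nearest to it in mean CPM. Members and partners had medians of 49.8 and 49.7 mean CPM. Because partners were shorter, with a median coding length of 1179 bp, their level per kb was 38.9, against 18.8 in the members. An equal number of reads thus stood for a higher level per length in the partners.

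Waterlogging moved exon-rich transcripts in both directions. Past the adjusted p threshold of 0.05, 24 members rose (2.28%) and 19 fell (1.81%). Of all 17410 models tested, 2.45% rose and 1.91% fell, so the members' shares were near the background. The members with an unadjusted p under 0.05 numbered 101 up and 110 down, beside 9.38% and 10.5% of all models. The median log2 fold change of the members was -0.02 (quartiles -0.72 and 0.56), that of the partners 0.08 and that of all models 0.01. Leaving out NS replicate 1 or NS replicate 2 ended every call, in the members and over all models (edgeR). At an unadjusted p under 0.05 there were then 87 members up and 78 down without NS replicate 1, and 40 up and 70 down without NS replicate 2. Leaving out WS replicate 1 gave 43 called up and 37 down (7.60% of members, against 7.06% of all models), and leaving out WS replicate 2 gave 70 up and 68 down (13.1% against 13.2%).

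Against partners with the same mean CPM the members changed less. Of the partners, 55 rose and 38 fell, so that 8.84% were called, against 4.09% of the members. The median absolute log2 fold change was 0.63 in members and 0.82 in partners, and 10% of them lay above 2.07 and 2.70. A change of at least 1 on the log2 scale was seen in 32.5% of members and 42.1% of partners, and a change of at least 3 in 4.18% and 8.65%. With partners nearest in both mean CPM and coding length, 5.23% were called and the median absolute log2 fold change was 0.80. With partners nearest in level per kb, 3.42% were called and the median was 0.80. These last partners had fewer reads, with a median mean CPM of 20.3 and a median SE of 0.719, against 49.8 and 0.548 in members. The members' lower share called was thus not seen with every choice of partners, while their smaller median change was. The part of unequal read support in either was not tested. No test was made over the members.

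Replicates of a treatment differed less in the members than in the partners nearest in mean CPM, but not in each comparison. The absolute log2 difference between the libraries of a treatment had a median of 0.483 in NS and 0.543 in WS for members, and 0.542 and 0.601 for partners. With partners nearest in mean CPM and coding length it was 0.474 in NS, under the members' value, and 0.607 in WS, above it. The median SE of the fold change was 0.548 in members and 0.590 in the partners nearest in mean CPM. The part of this spread in the smaller changes was not tested.

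**Figure D3:**
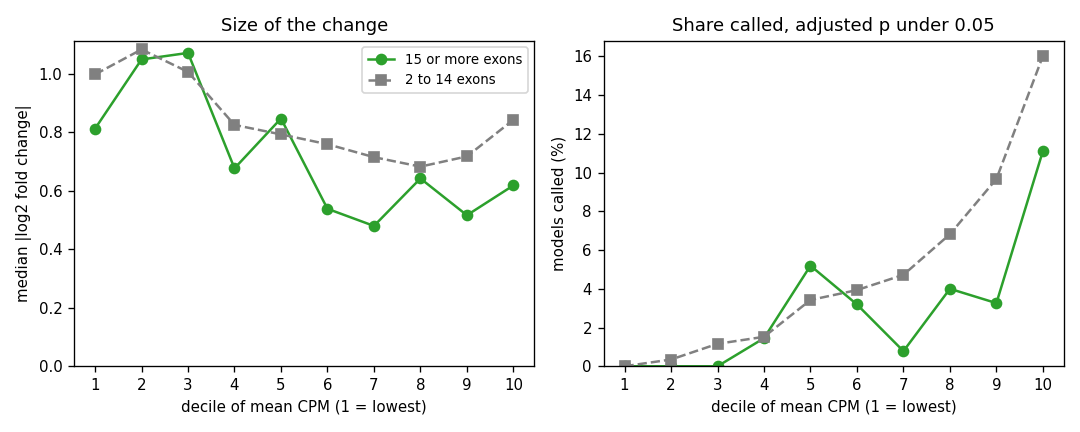
Median absolute log2 fold change (left) and percent of models called at an adjusted p under 0.05 (right) of members (15 or more exons, green circles) and of models of 2 to 14 exons (grey squares) in each decile of mean CPM. The members' median is lower in 8 of 10 deciles and their percent called is lower in 8 of 10; in the highest decile 11.1% of 189 members and 16.0% of 999 models with fewer exons were called.

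Split by deciles of mean CPM, the members had the smaller median change in 8 of 10 deciles and the larger one in deciles 3 and 5. In decile 10, above 138 CPM, it was 0.62 in 189 members and 0.84 in 999 models of 2 to 14 exons, and 21 members and 160 of the other models were called. In decile 7 it was 0.48 and 0.71. In decile 1, under 3.06 CPM, no model of either kind was called.

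The size of change went down along the whole range of exon numbers and not at 15. The median absolute log2 fold change was 1.10 in single-exon models, 0.95 at 2 to 4 exons, 0.78 at 5 to 9 and 0.75 at 10 to 14. It was 0.69 at 15 to 19 exons, 0.56 at 20 to 29 and 0.48 at 30 or more. These classes were not matched on read support. The median SE of the fold change also went down, from 0.890 in single-exon models to 0.566 at 15 to 19 exons and 0.524 at 20 to 29. The median mean CPM went up, from 13.1 to 41.1 and 59.3 in the same classes. The part of unequal read support in the smaller changes was not tested. At the border itself, the 198 members with exactly 15 exons had a median of 0.69, as did the 252 models with exactly 14. Across the 11872 models of 2 or more exons, Spearman's rho between exon number and absolute change was -0.12, and within the members it was -0.07, both weak.

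Called members were found in each exon class, at a share that went down with exon number. Of the 668 members with 15 to 19 exons, 17 rose and 14 fell (4.64% called). Of the 335 with 20 to 29 exons, 7 rose and 4 fell (3.28%). Of the 49 with 30 or more exons, none rose and 1 fell at the adjusted threshold (2.04%, edgeR). Of all models tested, 4.37% were called, and the share at 30 or more exons rests on 1 call. At an unadjusted p under 0.05, 2 of the 49 rose and 7 fell (edgeR), beside 9.38% and 10.5% of all models.

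The 24 members that rose had log2 fold changes from 1.98 to 8.12, with a median of 3.30. Their median CPM was 53.5 and 50.0 in NS replicates 1 and 2, and 529 and 350 in WS replicates 1 and 2. The 19 that fell lay between -5.13 and -2.25, with a median of -3.67, and their median CPM went from 95.1 and 147 in NS to at most 13.1 in WS. In each of the 43, which were picked for their difference, the WS libraries lay on the same side of both NS libraries. Among all models tested, the WS libraries lay above both NS libraries in 25.7% and below them in 26.8%, and among the members in 277 and 300 of 1052, so a lack of overlap between 2 and 2 libraries is common. Together the rising members took 0.296% and 0.301% of the counts in NS and 2.47% and 2.61% in WS, and the falling ones 0.522% and 0.617% in NS and 0.0426% and 0.0738% in WS. The remaining 1009 members received 9.32% and 9.35% of the counts in NS and 8.72% and 7.84% in WS.

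**Figure D4:**
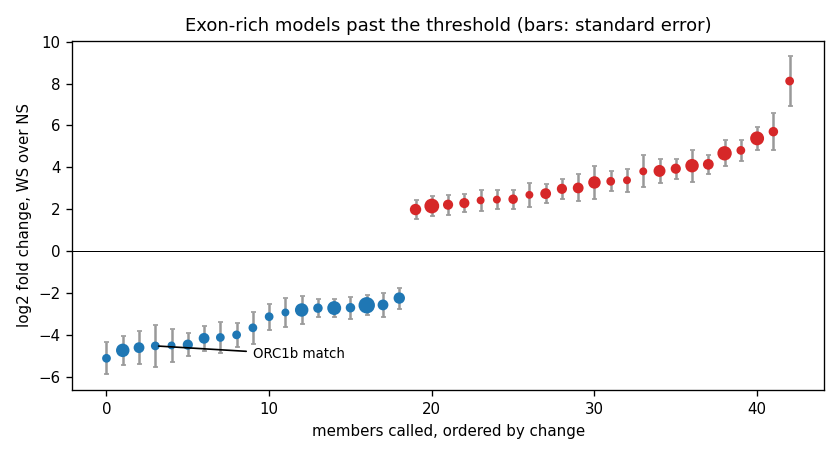
Log2 fold change (WS over NS) with its standard error for the 43 members past the adjusted p threshold, ordered by change; larger points have more exons, red points rose and blue points fell. The changes run from -5.13 to -2.25 and from 1.98 to 8.12, and the ORC1b match at -4.53 is the only one with a description.

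Of these 43, a description was at hand for 1, because the gene descriptions used cover 665 models. Those without a description are named by ID, and no function is given to them. The strongest rise was that of Jcr4S02562.40 (scaffold Jcr4S02562, 22242 to 29438, plus strand, 16 exons), counted 0 and 1 times in NS and 171 and 136 times in WS. The WS libraries held 393 times as many reads per scaled depth, with a 95% interval of 70.1 to 15584 that covers counting error only. Its fitted log2 fold change was 8.12 ± 1.17 (SE), with an adjusted p of 0.00717 in edgeR, and it depends on the prior count since NS held 1 read. The fit gave 5.99 without NS replicate 1 and 10.8 without NS replicate 2. This model passed the CPM filter through the WS libraries alone, where it is high. It was also called with no filter, but that fit kept all 43 calls and called 9.93% of members and 7.91% of all models. The call there does not set the model apart.

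Its direct neighbour on the opposite strand, Jcr4S02562.30 (14385 to 20173, minus strand, 16 exons), was the member with the highest level per kb of all. It had 366 and 327 CPM in NS and 8257 and 11123 CPM in WS, from 2386, 431, 30950 and 26357 reads. NS and WS did not overlap, and the log2 fold change was 4.81 ± 0.50 (SE, adjusted p = 0.00292, edgeR). The models lie 2068 bp apart and are transcribed away from each other, and they were the only neighbouring pair of members in which both were called. In the 4 other neighbouring pairs with a called member, the neighbour had a log2 fold change of -0.24, -0.00153, 0.32 or -1.49 and did not pass.

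Jcr4S02032.30 (scaffold Jcr4S02032, 8251 to 14839, plus strand, 17 exons) followed among the risers, with 0.614 and 0.758 CPM in NS and 41.3 and 30.0 CPM in WS. It was near the detection floor in NS, with 4 and 1 reads, and well above it in WS. It too passed the CPM filter through the WS libraries alone, and it was called with no filter, as were all 43 called members. Its log2 fold change was 5.70 ± 0.87 (SE, adjusted p = 0.0087, edgeR).

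The deepest falls were those of Jcr4S03783.80 (scaffold Jcr4S03783, 23428 to 29663, plus strand, 16 exons) and Jcr4S01765.40 (scaffold Jcr4S01765, 29535 to 38399, plus strand, 24 exons). The first had 42.2 and 40.9 CPM in NS and 1.07 and 1.27 CPM in WS, a log2 fold change of -5.13 ± 0.77 (SE, adjusted p = 0.00793, edgeR). The second had 85.1 and 113 CPM in NS and 5.34 and 1.69 CPM in WS, a log2 fold change of -4.75 ± 0.68 (SE, adjusted p = 0.00717, edgeR). Both were readily detected without stress and nearly lost from the WS libraries.

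High level and strong change met in several members. Of the 10 members with the highest level per kb, 4 rose, Jcr4S02562.30 at 2107, Jcr4S01799.10 at 1503, Jcr4S02762.40 at 923 and Jcr4S00249.120 at 395 CPM per kb, with log2 fold changes of 4.81, 3.93, 3.33 and 2.42. These levels are means over the 4 libraries and so include the rise itself. The other 6 lay between -0.62 and 1.20 and did not pass.

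Descriptions, as best matches to proteins of other plants, were at hand for 56 members, 8.42% of the 665 described models. All 56 lie on scaffolds numbered Jcr4S00001 to Jcr4S00037, whereas the members as a whole lie on 843 scaffolds. The described members are therefore not an even sample of the members. None rose, 1 fell, and 6 in each direction had an unadjusted p under 0.05 (edgeR). Of the 665 described models of any exon number 16 rose and 6 fell, and the shares over all models given above, 2.45% and 1.91%, or 9.38% and 10.5% at the unadjusted p, leave the members' counts near the background. Their median log2 fold change was -0.26, with 24 values above and 32 below 0. The members were most frequent among described genes of trafficking and cytoskeleton (8 of 25) and of carbon and energy metabolism (5 of 19). They were absent from the RNA processing list (0 of 18). This list pools RNA processing, RNA binding, transcription and ribosome biogenesis, so it is wider than the machinery that splices exons together. With members at 8.42% of the described models, an absence among 18 says little. Of these 18 RNA processing models of fewer exons or with a note, 1 rose and none fell at the adjusted threshold (edgeR, 5 at an unadjusted p under 0.05), with a median of 0.42.

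Among the 4 described members of DNA replication and cell cycle, 1 fell. The match to ORC1b of Arabidopsis (Jcr4S00017.70, scaffold Jcr4S00017, 35881 to 41028, plus strand, 16 exons), the large subunit of the origin recognition complex that marks where DNA replication starts, had 15.6 and 24.3 CPM in NS and 0.800 and 0.844 CPM in WS. The reads were 102 and 32 against 3 and 2, and the groups did not overlap. The model passed the CPM filter through the NS libraries alone, where it is high, and it was called with no filter, as were all 43 called members. Its log2 fold change was -4.53 ± 1.00 (SE, adjusted p = 0.0384, edgeR). The call was lost without NS replicate 1 (0.107), NS replicate 2 (0.211) or WS replicate 1 (0.0553), in limma voom (0.0602) and at equal depth (0.0703), all adjusted p.

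The other members of this list did not pass, and the replicates of some were far apart. The match to the CDC27 homolog of the anaphase-promoting complex (Jcr4S00034.50), which ends mitosis by marking proteins for breakdown, had 28.4 and 56.9 CPM in NS and 46.2 and 24.1 CPM in WS. The match to a DENN-domain protein placed under cell division (Jcr4S00012.70, 25 exons) had 94.6 and 97.1 CPM in NS and 96.8 and 112 CPM in WS. A 5′ to 3′ exonuclease family member (Jcr4S00027.220) had 12.7 and 37.9 CPM in NS and 24.8 and 14.3 CPM in WS. The 3 log2 fold changes lay between -0.33 and 0.13. Those of Jcr4S00034.50 and Jcr4S00027.220 changed sign with the NS library left out, from -0.69 to 0.31 and from -0.95 to 0.63, so neither a change nor its absence can be read from them.

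Of the 5 described members of carbon and energy metabolism, none passed. The alpha subunit of pyrophosphate-dependent phosphofructokinase (PFP, Jcr4S00002.120, 19 exons), which carries out a glycolytic step with pyrophosphate in place of ATP, had the lowest adjusted p of the described members with higher values in WS. It had 317 and 295 CPM in NS and 1058 and 854 CPM in WS, without overlap, and a log2 fold change of 1.64 ± 0.42 (SE, adjusted p = 0.0632, edgeR). The call was gained in DESeq2 (adjusted p = 0.0137), in limma voom (0.026), with no filter, with the replicate block and without either WS library.

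Starch phosphorylase H (Jcr4S00024.70, 17 exons), the cytosolic isozyme that releases glucose 1-phosphate from glucans, had 65.3 and 47.8 CPM in NS and 23.2 and 13.9 CPM in WS. The WS values were lower in both libraries, with a log2 fold change of -1.60 ± 0.56 (SE, adjusted p = 0.151, edgeR). The match to a callose synthase (Jcr4S00010.30, 37 exons), which makes the cell wall glucan callose, had 25.0 and 72.0 CPM in NS and 49.1 and 22.8 CPM in WS, and these overlapped. A raffinose synthase match (Jcr4S00009.110) and a pyruvate, phosphate dikinase match (Jcr4S00007.350) completed the list, at -0.54 and 1.30, the latter with at most 4.22 CPM.

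Membrane transporters held the described member with the most exons. It was the match to ATH6 of Arabidopsis (Jcr4S00035.150, scaffold Jcr4S00035, 92264 to 110250, plus strand, 40 exons), an ABC transporter, a class of pumps driven by ATP. It had 28.1 and 36.4 CPM in NS and 4.80 and 0.422 CPM in WS, from 183, 48, 18 and 1 reads. The WS libraries were well below NS but far apart from each other, and the log2 fold change of -3.52 ± 0.97 (SE) did not pass (adjusted p = 0.0775, edgeR). It passed in DESeq2, in the likelihood ratio test, with no filter, with the replicate block and without WS replicate 1.

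The other described transporters did not pass either. A sugar transporter of the major facilitator superfamily (Jcr4S00036.210, 18 exons) had 86.5 and 78.9 CPM in NS and 273 and 122 CPM in WS, a log2 fold change of 1.26 (adjusted p = 0.205, edgeR). A phosphate transporter match (Jcr4S00024.60) had 56.6 and 54.6 CPM in NS and 38.4 and 63.7 CPM in WS. The 2 further ABC transporter matches (Jcr4S00008.450 and Jcr4S00025.210) were at 0.53 and -0.93.

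**Figure D5:**
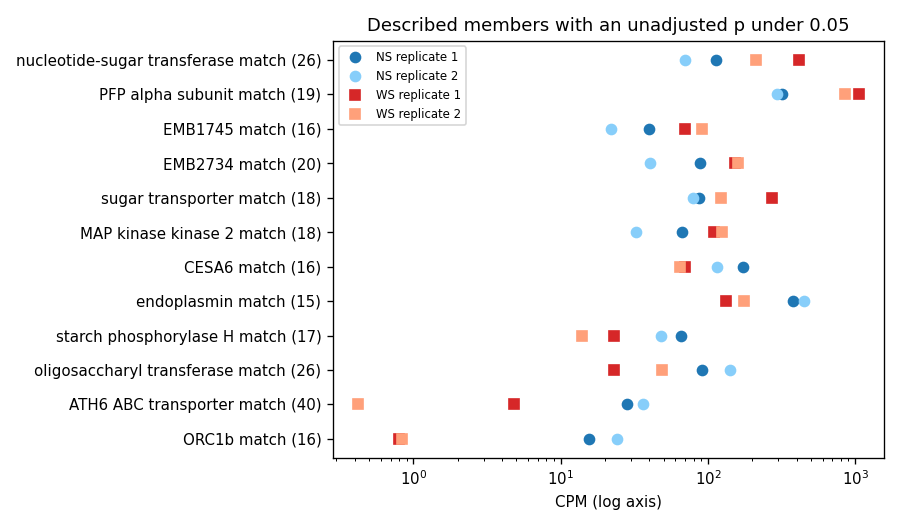
CPM (log axis, TMM-scaled) in each library for the 12 described members with an unadjusted p under 0.05, with the number of exons in brackets; circles are NS and squares are WS. In all 12, picked by that p, the NS and WS libraries do not overlap, as in 25.7% (WS above) and 26.8% (WS below) of all models, and only the ORC1b match at the bottom, from 15.6 and 24.3 to 0.800 and 0.844 CPM, passed the adjusted threshold.

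The 8 described members of trafficking and cytoskeleton had log2 fold changes between -1.17 and 0.99. None passed even at an unadjusted p under 0.05 (edgeR). This list pools protein targeting, cell organisation and vesicle transport, so not all of its proteins move vesicles or organelles. The class XI myosin match (Jcr4S00005.310, 37 exons), a motor that drives organelles along actin, was abundant, with 273 and 402 CPM in NS and 215 and 168 CPM in WS. Both WS values lay under both NS values, at -0.81 ± 0.44 (SE, adjusted p = 0.349, edgeR). The kinesin POK1 match (Jcr4S00025.280, 36 exons), which helps place the division plane in Arabidopsis, had 97.5 and 41.7 CPM in NS and 11.2 and 51.5 CPM in WS, and the groups overlapped.

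Near the upper end, the match to VPS35B (Jcr4S00006.210, 26 exons), a subunit of the retromer that recycles vacuolar sorting receptors, had 33.9 and 46.3 CPM in NS and 76.0 and 82.3 CPM in WS. Its groups did not overlap and its log2 fold change was 0.99 ± 0.48 (SE, adjusted p = 0.296, edgeR). A golgin-like Golgi protein (Jcr4S00012.60) was at -0.31, and an actin-related protein (Jcr4S00012.20) at 0.32.

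Of the 3 described members of protein turnover and folding, none passed. The endoplasmin match (GRP94, Jcr4S00006.110, 15 exons), a chaperone of the endoplasmic reticulum, had 377 and 446 CPM in NS and 132 and 177 CPM in WS. All WS values were under all NS values, with a log2 fold change of -1.41 ± 0.43 (SE, adjusted p = 0.107, edgeR). A DnaJ-type cochaperone (Jcr4S00003.130) and a metalloprotease (Jcr4S00004.290) were at -0.43 and 0.27.

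In the cell wall and other metabolism list of 7 members, 6 values lay below 0, as did 49.8% of those of all models, and none passed. The CESA6 match (Jcr4S00002.350, 16 exons), a cellulose synthase of the primary wall, had 173 and 114 CPM in NS and 69.9 and 65.0 CPM in WS, without overlap, at -1.09 ± 0.46 (SE, adjusted p = 0.221, edgeR). The largest difference was that of a carotenoid hydroxylase match (Jcr4S00027.50), an enzyme of carotenoid synthesis, with 7.82 and 17.4 CPM in NS and 4.54 and 1.27 CPM in WS, at -2.04 ± 1.06 (SE, adjusted p = 0.331, edgeR). A glycosyl transferase (Jcr4S00022.100) was at -0.88, and a multifunctional enzyme of fatty acid beta-oxidation (Jcr4S00021.320) was at 0.66 with 133 and 33.3 CPM in the WS libraries.

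Of the 4 described members of signalling and protein modification, none passed. The match to MAP kinase kinase 2 (Jcr4S00005.240, 18 exons), which relays stress signals in Arabidopsis, had 66.7 and 32.6 CPM in NS and 110 and 125 CPM in WS. It did not overlap between groups, with a log2 fold change of 1.22 ± 0.51 (SE, adjusted p = 0.219, edgeR). A protein kinase (Jcr4S00031.170) and a protein with phosphatase and kinase domains (Jcr4S00034.180) were at -0.51 and -0.19.

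The 3 members that regulate transcription, an ATXR7 match (Jcr4S00002.340) and another SET-domain protein (Jcr4S00037.190), a class that methylates histones, and an ARID DNA-binding protein (Jcr4S00002.70), lay between -0.51 and 0.35. The 3 members of translation included the match to CBP80 (Jcr4S00003.20, 20 exons), the large subunit of the nuclear cap-binding complex that takes part in splicing. It had 68.3 and 37.9 CPM in NS and 68.3 and 78.9 CPM in WS, at 0.46. The eRF1 family match (Jcr4S00027.20, 19 exons), related to the factor that ends translation, kept 31.4 and 33.4 CPM in NS and 33.3 and 34.2 CPM in WS, a log2 fold change of 0.06 ± 0.53 (SE).

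The 3 described members of the stress and development list did not pass and went both ways. An oligosaccharyl transferase match (Jcr4S00034.60, 26 exons), of the enzyme that attaches sugar chains to secreted proteins, listed there for its role under salt, had 91.3 and 141 CPM in NS and 22.9 and 48.5 CPM in WS. The groups did not overlap, at -1.70 ± 0.55 (SE, adjusted p = 0.122, edgeR). The match to EMB1745 of Arabidopsis (Jcr4S00008.330), needed for embryo development, had 39.7 and 22.0 CPM in NS and 70.2 and 91.2 CPM in WS, at 1.36 (adjusted p = 0.186, edgeR). A WD-40 repeat protein (Jcr4S00007.470) was at 0.77.

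Among the 11 described members without an assigned function, none passed. A nucleotide-diphospho-sugar transferase family member (Jcr4S00008.440, 26 exons) had 114 and 69.8 CPM in NS and 415 and 211 CPM in WS. The groups did not overlap, and the log2 fold change was 1.76 ± 0.51 (SE, adjusted p = 0.092, edgeR). The match to EMB2734 of Arabidopsis (Jcr4S00031.10), also needed for embryo development, was at 1.28 (adjusted p = 0.199, edgeR).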

How the data were processed

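Root poly(A) RNA of 2 NS and 2 WS libraries was sequenced on an Ion Proton instrument. After trimming, the authors placed the reads on the Jatropha curcas genome release 4.5 with TMAP, obtained raw read counts of each gene model with HTSeq and deposited these. HTSeq and edgeR appear in the submitters' processing notes. Their versions, the strand setting and how multiply matching reads were handled are not given in the sources used here. Reads of near-identical copies may be split or lost. The deposited annotation gives coding exons, notes and a score, which was not used. A further deposited table holds the authors' own comparison (log2 fold change, log2 CPM, likelihood ratio, p-value, false discovery rate and CPM) and was not used.

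Models of 1 CPM or more in 2 or more libraries were tested with edgeR 4.0.16 in R 4.3.3 (TMM, estimateDisp, glmQLFit, glmQLFTest, two-sided, no covariate), with Benjamini-Hochberg adjustment over all 17410 models and a threshold of 0.05. The script was tested on simulated data. Standard errors were derived from the F statistic. CPM of single models is over TMM-scaled library sizes, whereas the filter and the choice of partners used plain library totals of 1204502 to 6110438 counts. Partners were taken in order from the member with the highest mean CPM, each used once. DESeq2 1.42.0, limma 3.58.1 (voom), the likelihood ratio test, other scalings, filters, exon minima and partners, thinning to equal depth, a replicate block and each library left out served as alternatives. Summaries were made in Python 3.11.15 (scipy 1.17.1, numpy 2.4.6, pandas 2.3.3), figures in matplotlib 3.10.9.

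Members and lists were chosen with earlier results of these data known. Functional lists group the Mercator bins of the 665 described models at hand, so no enrichment was tested. Named are the described members past the threshold, the 3 with the highest level per kb in each list, the described member with the most exons, by ID the 2 highest and 2 lowest fold changes past the threshold and the highest level, and the 3 lowest p in each direction; others were named after their values were seen. The RefSeq table matched 0 of the IDs, and no sequence was used here. The labels do not say whether same-numbered NS and WS libraries were paired, and the main fit treated them as unpaired.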

Additional observations from a re-analysis of the deposited data

How the results depend on the processing

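The difference of the median absolute log2 fold change between members and partners, -0.18, kept its sign under every alternative run. The counts of calls moved with the test and the filter. Up and down, the members called were 52 and 57 with no filter and 47 and 49 with DESeq2. The likelihood ratio test called 50 down, limma voom 30 down and the equal depth fit 11 down; 40 and 41 passed at an adjusted p under 0.10. With each library left out in turn the up count ran from 0 to 70 and the down count from 0 to 68. Of the 43 calls, 42 were shared with the likelihood ratio test, 43 with DESeq2 and 30 with equal depth. The partners' share called stayed above the members' in each of these fits except those without an NS library, where nothing was called.

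The median log2 fold change of the members was -0.25 with total library size, where that of all models was -0.22, and ran from -0.17 to 0.0801 with a library left out. Its difference from the partners was -0.10, but from -0.16 to 0.0203 with a library left out (the latter without WS replicate 2) and 0.0267 against all models of 2 to 14 exons, so no direction is read from it. The median level of 18.8 CPM per kb was 16.8 in NS replicate 2 alone, 16.0 in WS replicate 2 alone and 17.1 with noted models allowed. Members' shares of counts in NS and WS were 22.5% and 24.1% with 10 or more exons, 16.99% and 17.8% with 12 or more, 4.30% and 4.08% with 20 or more, and 11.9% and 12.6% with noted models allowed. The share in WS was 9.98% without Jcr4S02562.30, an alternative chosen after seeing the data, as was leaving out the members called.

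With the replicate block, 44 members rose and 53 fell (9.22%, against 9.67% of all models). The deviations of same-numbered libraries correlated at 0.0913 over 17410 genes. A correlation over all genes cannot decide whether same-numbered libraries shared a batch that acted on part of the genes, and the labels do not say.

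With 2 libraries per group, no calls survived the loss of an NS library, and the shallowest library, with 1204502 counts, limits what can be said of weak members. A fit with 1 library in a group assumes that it varies like those of the other group. Exon number, coding length and mean CPM go together in these models, so none of them can be read alone from a comparison that fixes only one of the others.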
